A study of Mus musculus with 4 samples.

Results

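Tetraspanins and the genes of extracellular vesicle formation and release were examined in MLO-Y4 cells, a mouse osteocyte-like line derived from long bone, with and without mechanical loading. The members were chosen by name, with earlier results of these data known. They comprised 10 of the 55450 genes in the count table, and each name occurred once. They were the tetraspanins *Cd63*, *Cd9*, *Cd81*, *Cd82* and *Cd151*, the sorting and budding genes *Pdcd6ip*, *Tsg101* and *Sdcbp*, and the release genes *Rab27a* and *Rab27b*. The question was whether the small difference in *Cd63* was shared by other vesicle genes. *Cd63* is an exosome marker at whose locus the study reported osteocyte-specific binding of the transcription factor NRF2. Wild-type MLO-Y4 cells were grown in DMEM with fetal and newborn calf serum. The loaded group (n = 2) grew on elastic silicone wells coated with collagen and received equiaxial cyclic stretch (20% strain, 0.5 Hz) over 12 h. The unloaded group (n = 2) stayed in the incubator of the loading system for 12 h on ordinary culture plates, so the plate and the stretch cannot be told apart. RNA was sequenced after depletion of ribosomal RNA. All libraries came from 1 cell line, and the labels do not say whether replicates were separate cultures, so the p-values measure the spread between these samples, which may be technical.

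Tetraspanins are small proteins that cross the membrane several times and gather partner proteins into membrane microdomains. CD63 resides mainly in late endosomes and lysosomes, whereas CD9 and CD81 lie mainly at the cell surface, and all of these are used as markers of extracellular vesicles. Exosomes form when the ESCRT machinery, or the syndecan, syntenin and ALIX route, buds vesicles into a multivesicular endosome, and they leave the cell when RAB27 proteins dock that endosome at the plasma membrane. Osteocytes release vesicles that reach other bone cells. RNA counts measure the transcripts of these genes and not the vesicles.

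Total counts ranged from 28941994 to 32185693 per library, and a floor of 3 counts corresponded to between 0.0930 and 0.103 CPM (counts per 1000000 counts of the library, scaled by edgeR's TMM factors), which covers counting error only. Replicates differed by more than counting noise, with a chi-square per degree of freedom of 17.6 in unloaded and 19.0 in loaded pairs. Of 9 osteocyte markers, *Pdpn*, *Phex*, *Gja1* and *Col1a1* had means between 43.8 and 1012 CPM, whereas *Dmp1*, *Bglap*, *Fgf23*, *Sost* and *Mepe* had means of at most 0.439 CPM. The leukocyte markers *Ptprc*, *Adgre1* and *Itgam* had means of at most 0.0620 CPM. *Csf1r* was counted at 1579 CPM in unloaded and 1560 CPM in loaded cells, and *Cd14* at 53.6 and 42.8 CPM, and the part of these in the values below was not tested. The 4 endothelial markers had means of at most 1.58 CPM and the 4 epithelial ones of at most 0.444 CPM.

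Differences between the groups were tested with edgeR's quasi-likelihood test over all 16269 genes that passed the filter on low counts, with Benjamini-Hochberg adjustment over all of them, and a gene was called at an adjusted p under 0.01. All 10 members passed the filter. None was called, against 0.0983% of all tested genes (0.0123% higher and 0.0861% lower in loaded cells). At an unadjusted p under 0.05, *Cd63* and *Cd9* were higher and *Cd82* was lower in loaded cells, which is 3 of 10 members, against 14.3% of all tested genes. At an adjusted p under 0.05 the only member was *Cd82*, against 0.904% of all tested genes. With DESeq2, the tool of the study, *Cd82* was the only member under 0.01, against 2.91% of the 12484 genes given an adjusted p. *Rab27a* was not given one by DESeq2. In bulk RNA, fewer cells expressing a gene and less RNA of it per cell cannot be told apart.

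**Figure D1:**
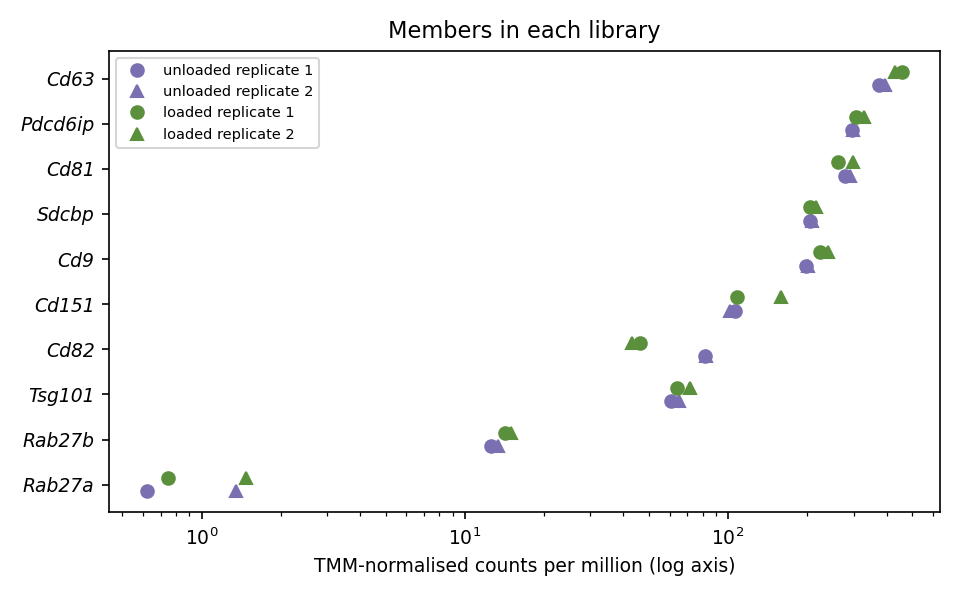
TMM-normalised counts (CPM) of the 10 members (log axis) in the 4 libraries, with circles for replicate 1 and triangles for replicate 2 of each group. Both loaded libraries of *Cd82* lie left of both unloaded libraries, at 46.3 and 43.2 against 82.1 and 82.8 CPM, and those of *Cd63* and *Cd9* lie to the right.

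The starting sequences of *Cd63*, *Cd9* and *Cd82* are shown because these were the members with an unadjusted p under 0.05. Each window holds 300 bases of RefSeq sequence (GRCm38.p6), from 250 bases before the RefSeq start to 50 after it, written 5′ to 3′ on the strand of the gene. Capitals mark the antioxidant response element core TGACNNNGC, to which NRF2 binds, and the GC box GGGCGG, to which SP1 binds, each on either strand. *Cd82* has 4 RefSeq starts, of which the first and the next one downstream are given. The RefSeq start of *Cd63* lies inside the longer GENCODE gene model given below, not at its outer end.
Cd63 (chr10:128909095-128909394, plus strand): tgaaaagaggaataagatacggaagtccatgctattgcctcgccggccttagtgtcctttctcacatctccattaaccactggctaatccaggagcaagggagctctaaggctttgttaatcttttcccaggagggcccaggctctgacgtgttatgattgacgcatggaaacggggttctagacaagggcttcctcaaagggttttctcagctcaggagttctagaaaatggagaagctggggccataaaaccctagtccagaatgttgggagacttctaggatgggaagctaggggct
Cd9 (chr6:125494711-125495010, minus strand): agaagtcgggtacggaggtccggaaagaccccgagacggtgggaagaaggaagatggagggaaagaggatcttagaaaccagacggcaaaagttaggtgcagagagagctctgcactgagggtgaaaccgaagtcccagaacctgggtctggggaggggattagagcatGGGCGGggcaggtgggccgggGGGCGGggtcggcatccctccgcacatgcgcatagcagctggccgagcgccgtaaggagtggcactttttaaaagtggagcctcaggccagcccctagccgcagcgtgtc
Cd82, first start (chr2:93462901-93463200, minus strand): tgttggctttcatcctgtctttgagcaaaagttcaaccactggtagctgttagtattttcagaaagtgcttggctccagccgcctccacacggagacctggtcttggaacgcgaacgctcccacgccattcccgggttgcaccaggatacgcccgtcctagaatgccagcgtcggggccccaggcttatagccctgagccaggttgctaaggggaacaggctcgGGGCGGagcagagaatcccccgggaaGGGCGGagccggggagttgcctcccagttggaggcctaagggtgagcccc
Cd82, next start (chr2:93462453-93462752, minus strand): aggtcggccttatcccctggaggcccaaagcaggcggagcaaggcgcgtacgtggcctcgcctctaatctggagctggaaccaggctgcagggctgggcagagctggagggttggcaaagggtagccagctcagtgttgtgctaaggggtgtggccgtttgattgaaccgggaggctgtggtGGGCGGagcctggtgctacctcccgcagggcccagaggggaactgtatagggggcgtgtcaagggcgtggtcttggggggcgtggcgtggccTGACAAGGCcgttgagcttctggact

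In the 13 windows of the 8 members that have one, the antioxidant response element core occurred in 3, those of *Cd82* (next start), *Tsg101* and *Pdcd6ip*, and in 12.4% of all 32851 RefSeq windows. The *Cd63* and *Cd9* windows held no match to it. Whether the *Cd63* window covers the NRF2 binding site reported by the study was not tested. The GC box occurred in 7 of the 13 windows, of 6 members, and in 35.7% of all windows. *Cd9* had 2 of them and *Cd63* had none. The E-box CACGTG, which TFEB binds in lysosomal genes, occurred in 2 windows (*Pdcd6ip*, where it overlaps the antioxidant response element core, and *Rab27a*) and in 7.15% of all windows. Neither the AP-1 site TGANTCA nor the interferon-stimulated response element core occurred in any of the 13 windows, and these were found in 7.81% and 3.44% of all windows. The *Cd63* window was 49.3% G and C, against 61.3% in *Cd9* and 60.7% at the first start of *Cd82*, with a median of 52.7% over all windows. The TATA box letters TATAAA occurred in 1 window, that of *Cd81*, and in 13.6% of all windows. In *Cd81* the match begins 6 bases after the RefSeq start, not before it. The GC boxes of *Tsg101* overlap each other. A match to these letters is a description of the window only.

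*Cd82*, a tetraspanin known as a suppressor of metastasis, had the largest difference of the members. The gene (ENSMUSG00000027215.13) spans chr2:93419111-93463140 on the minus strand (GRCm38). Its counts were 2383 and 2509 in unloaded replicates 1 and 2, and 1495 and 1287 in loaded replicates 1 and 2. On the CPM scale these were 82.1 and 82.8 against 46.3 and 43.2. Both loaded libraries lay below both unloaded libraries, as in 24.5% of all tested genes. The log2 fold change was -0.88 (standard error 0.0919, 95% interval -1.10 to -0.66), so that loaded cells had 0.543 times the unloaded level. The edgeR quasi-likelihood test gave an adjusted p = 0.0216, rank 49 of 16269 genes by p. DESeq2 gave an adjusted p = 6.14e-10 and limma-voom 0.0167. The log2 fold change stayed between -0.93 and -0.83 on leaving out any 1 library, but the edgeR adjusted p was 0.0597 without loaded replicate 1 and 0.0767 without loaded replicate 2.

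*Cd63*, whose product recycles between endosomes, lysosomes and the cell surface, was the most abundant member and differed in the other direction. The gene (ENSMUSG00000025351.14) spans chr10:128900989-128912822 on the plus strand. It had 374.8 and 393.6 CPM without loading and 457.7 and 431.5 CPM with it. Both loaded libraries were the higher ones, as in 22.1% of all tested genes. Its log2 fold change was 0.21 (standard error 0.0626, 95% interval 0.058 to 0.36), or 1.16-fold, and 20.6% of all tested genes had a larger one. The edgeR quasi-likelihood test gave an unadjusted p = 0.0148 and an adjusted p = 0.212 over all tested genes, and DESeq2 an adjusted p = 0.109. Reads of the pseudogene *Cd63-ps* were counted at between 42 and 88 per library, against at least 10885 for *Cd63*.

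*Cd9*, a surface tetraspanin that pairs with integrins and is also found on vesicles, followed *Cd63* in size and direction. Its gene (chr6:125460266-125494791, minus strand) had 197.1 and 200.4 CPM without loading and 223.7 and 240.1 CPM with it. The groups did not overlap. The difference on the log2 scale was 0.22 (standard error 0.0670, 95% interval 0.059 to 0.39), with an edgeR adjusted p = 0.219 and a DESeq2 adjusted p = 0.134. The difference of both genes kept its direction in each library left out, between 0.17 and 0.25 for *Cd63* and between 0.17 and 0.28 for *Cd9* on the log2 scale.

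*Cd81* (chr7:143052739-143067934, plus strand), the closest relative of *Cd9* among the members, had overlapping groups. It had 276.9 and 290.0 CPM without loading and 262.1 and 297.2 CPM with it, and the loaded libraries lay on both sides of the unloaded ones. The log2 fold change was -0.020 (95% interval -0.21 to 0.17, edgeR adjusted p = 0.943), and this interval overlaps that of *Cd63*. *Cd151* (chr7:141467392-141471473, plus strand), which binds laminin-receptor integrins, had the largest positive estimate of the members, 0.36, and the widest interval of the 5 member tetraspanins (95% interval -0.062 to 0.79, edgeR adjusted p = 0.416). Its values were 105.8 and 102.0 CPM in unloaded and 108.2 and 159.0 CPM in loaded cells. Loaded replicate 2 alone stood apart, and without it the log2 fold change of *Cd151* was 0.057. An antisense gene, *Gm10575*, shares 193 exon bases with *Cd151* and had between 156 and 234 counts per library, and the strand setting of the counting is not given in the sources used here.

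**Figure D2:**
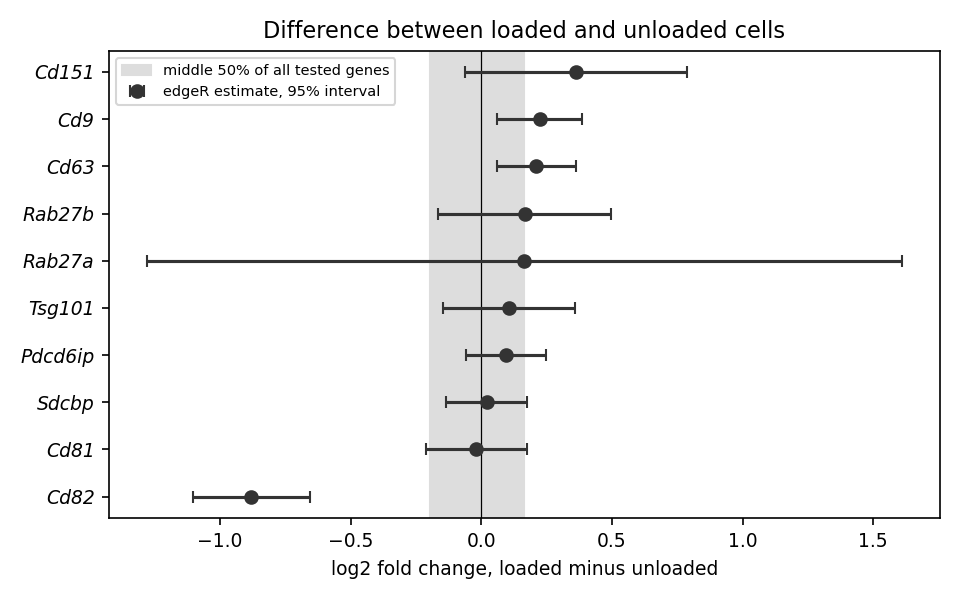
Log2 fold change of each member, loaded minus unloaded, with its 95% interval from edgeR's quasi-likelihood test, and a grey band for the middle 50% of all tested genes. The intervals of *Cd82*, *Cd63* and *Cd9* exclude 0, and that of *Rab27a* runs from -1.28 to 1.61.

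None of the genes that sort cargo and bud vesicles into endosomes passed the test. *Pdcd6ip* (chr9:113651744-113708259, minus strand) encodes ALIX, which links syntenin to the ESCRT machinery, and had 296.0 and 297.7 CPM in unloaded and 306.8 and 327.2 CPM in loaded cells. Both loaded libraries were higher, but the log2 fold change was 0.095 (95% interval -0.057 to 0.25, edgeR adjusted p = 0.553), and 0.047 without loaded replicate 2 and 0.14 without loaded replicate 1. *Tsg101* (chr7:46888949-46919969, minus strand), the ESCRT-I subunit that recognises ubiquitin, had 60.6 and 65.4 CPM in unloaded and 63.9 and 71.8 CPM in loaded cells. These overlapped, with a log2 fold change of 0.11 (95% interval -0.15 to 0.36, edgeR adjusted p = 0.701), which was 0.019 without loaded replicate 2, 0.19 without loaded replicate 1, 0.060 without unloaded replicate 1 and 0.16 without unloaded replicate 2. *Sdcbp* (chr4:6365650-6408423, plus strand) encodes syntenin-1, the adaptor between syndecans and ALIX, and had 205.6 and 209.0 CPM in unloaded and 205.4 and 215.1 CPM in loaded cells. Its log2 fold change was 0.020 (95% interval -0.13 to 0.18, edgeR adjusted p = 0.924). This interval also overlaps that of *Cd63*.

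Of the small GTPases that dock multivesicular endosomes for release, *Rab27b* was the one clearly detected. It had 12.6 and 13.4 CPM in unloaded and 14.2 and 14.9 CPM in loaded cells, and both loaded libraries were higher. The log2 fold change was 0.17 (95% interval -0.17 to 0.50, edgeR adjusted p = 0.641). *Rab27a* (chr9:73044854-73097629, plus strand) had 18 and 41 counts in the unloaded and 24 and 44 counts in the loaded libraries, or between 0.620 and 1.48 CPM. The values of replicate 2 were the higher ones in both groups, and the interval of its log2 fold change ran from -1.28 to 1.61. Per length of exon, *Rab27b* was counted at between 3.60 and 7.37 times the level of *Rab27a* in the 4 libraries. This ratio depends on the length used, since per kilobase of coding sequence the unloaded means were 19.9 and 1.49, against 1.22 and 0.254 per kilobase of exon.

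Levels were compared between members per length, as RPKM (CPM per kilobase of annotated exon). In unloaded cells *Cd63* was highest at 104 ± 3.61 RPKM (SD, n = 2), followed by *Cd81* at 98.5 ± 3.20 and *Cd9* at 97.2 ± 1.13 RPKM. The libraries of *Cd81* and *Cd9* overlapped, whereas both of *Cd63* were above them. In loaded cells *Cd9* took the place after *Cd63*, with 113 ± 5.66 against 121 ± 5.03 RPKM, and its libraries overlapped those of *Cd63*, while *Cd81* stood at 97.1 ± 8.63 RPKM. *Pdcd6ip*, *Cd151*, *Sdcbp*, *Cd82* and *Tsg101* followed in unloaded cells, between 43.0 and 23.1 RPKM, and neighbours in this order did not overlap. The GTPases were far below, at 1.22 ± 0.0549 RPKM for *Rab27b* and 0.254 ± 0.134 RPKM for *Rab27a*. In loaded cells *Cd82*, at 14.9 ± 0.742 RPKM, passed below *Tsg101* at 24.8 ± 2.04 RPKM. With coding length in place of exon length *Cd63*, *Cd81* and *Cd9* kept this order in unloaded cells but stood further apart. They had 538, 400 and 293 CPM per kilobase of coding sequence. *Sdcbp* moved from place 6 to place 4, and *Pdcd6ip* from place 4 to place 6. Levels in loaded cells were not compared by coding length, so the order of *Cd9* and *Cd81* there holds for exon length only.

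To set the *Cd63* difference against that of each other member, *Cd63* was divided by the other gene within each library. This was done on the log2(CPM + 0.5) scale, where scaling between libraries cancels except for the added 0.5. That addition matters for genes with low counts. With 2 libraries per group the two-sided exact permutation test cannot give a p under 0.333, which was reached by *Cd82*, *Cd81* and *Sdcbp*, and after Benjamini-Hochberg adjustment over the 9 ratios every value was 1. The ratio to *Cd82* was 2.18 and 2.24 in unloaded and 3.29 and 3.31 in loaded libraries, a difference of 1.08. The ratio to *Cd81* was 0.44 in both unloaded libraries and 0.80 and 0.54 in those of loaded cells, a difference of 0.23. For *Sdcbp* the difference was 0.19, and the groups did not overlap either. Groups without overlap give no exact permutation p below 0.333 here, and single genes were apart in 46.6% of all tested genes. Whether *Cd63* differed more than *Cd81* or *Sdcbp* is not decided by these ratios. Without loaded replicate 1 the difference was 0.099 for *Cd81* and 0.11 for *Sdcbp*, and without loaded replicate 2 that for *Cd81* was 0.37. For the ratio to *Cd9* the groups overlapped, at 0.93 and 0.97 in unloaded against 1.03 and 0.84 in loaded libraries, with a difference of -0.011 (exact permutation p = 1). The ratios to *Pdcd6ip*, *Tsg101*, *Rab27a*, *Rab27b* and *Cd151* also overlapped, with differences between -0.12 and 0.12 and exact permutation p between 0.667 and 1. For *Rab27a* the difference was 0.088, but 0.037 with 0.1 added in place of 0.5 and 0.15 with 2 added.

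**Figure D3:**
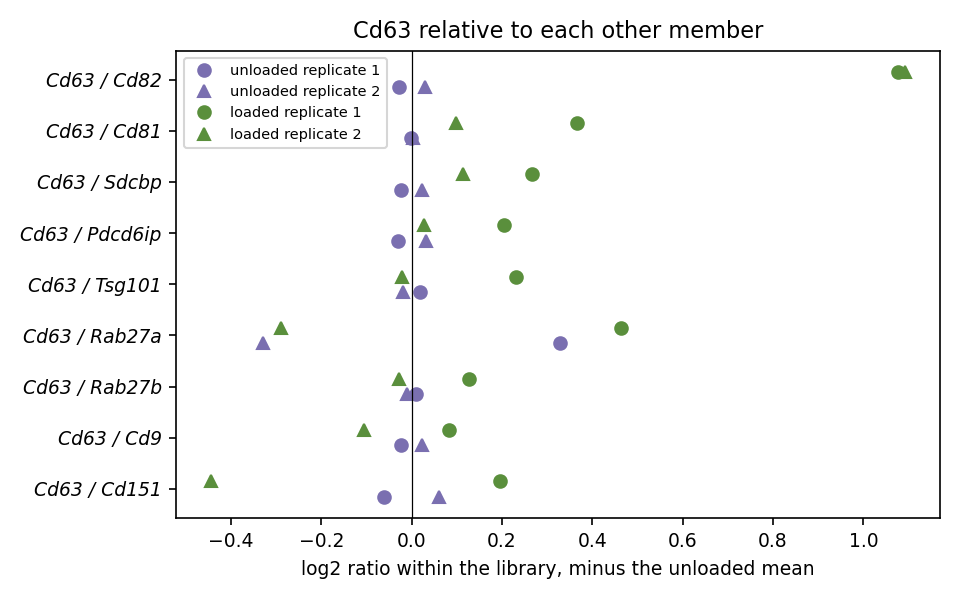
Log2 ratio of *Cd63* to each other member within each of the 4 libraries, minus the unloaded mean of that ratio. The loaded libraries lie above the unloaded ones for *Cd82*, *Cd81* and *Sdcbp*, by 1.08, 0.23 and 0.19 on average, and on both sides of them for *Cd9* and *Cd151*. Groups without overlap give an exact permutation p of 0.333, the smallest possible with 2 libraries per group.

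Over the 10 members the median log2 fold change was 0.14, against -0.0089 over all tested genes. It was positive for 8 members and for 48.5% of all tested genes. Both loaded libraries lay above both unloaded ones for 5 members (*Cd63*, *Cd9*, *Cd151*, *Pdcd6ip* and *Rab27b*), against 22.1% of all tested genes, and below them for *Cd82*. The groups were thus apart in 6 of 10 members and in 46.6% of all tested genes. *Cd63*, whose difference posed the question, is itself among the members counted here. The members were also chosen with earlier results known, so these counts do not test sharing. In *Cd151* loaded replicate 1 was only slightly above the unloaded libraries, at 108.2 against 105.8 and 102.0 CPM. The median rested on loaded replicate 2, since it was 0.033 without that library.

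The makeup of the tetraspanin family was compared next, over the 31 tetraspanin genes of the gene lists, of which 26 had any counts. Their summed level was 586.6 and 599.5 RPKM in unloaded and 613.9 and 652.4 RPKM in loaded libraries. *Cd63*, *Cd81* and *Cd9* together made up 50.6% of it in unloaded and 52.3% in loaded cells. The share of *Cd81* alone was lower in both loaded libraries, at 14.8% and 15.8% against 16.4% and 16.8%. The share of *Cd82* was 4.65% and 4.60% without loading and 2.51% and 2.20% with it. *Cd9* held 16.4% in each unloaded library, and 17.8% and 18.0% in the loaded libraries. The share of *Cd63* was 17.4% and 17.8% in unloaded and 20.2% and 18.0% in loaded libraries, and that of *Cd151* was 8.89% in loaded replicate 2 against between 6.21% and 6.58% in the other libraries. Shares sum to a fixed total, so they are not independent of each other. They also depend on the length used, and shares by coding length were not computed. In unloaded cells *Cd63*, *Cd81* and *Cd9* had 104, 98.5 and 97.2 RPKM, but 538, 400 and 293 CPM per kilobase of coding sequence.

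**Figure D4:**
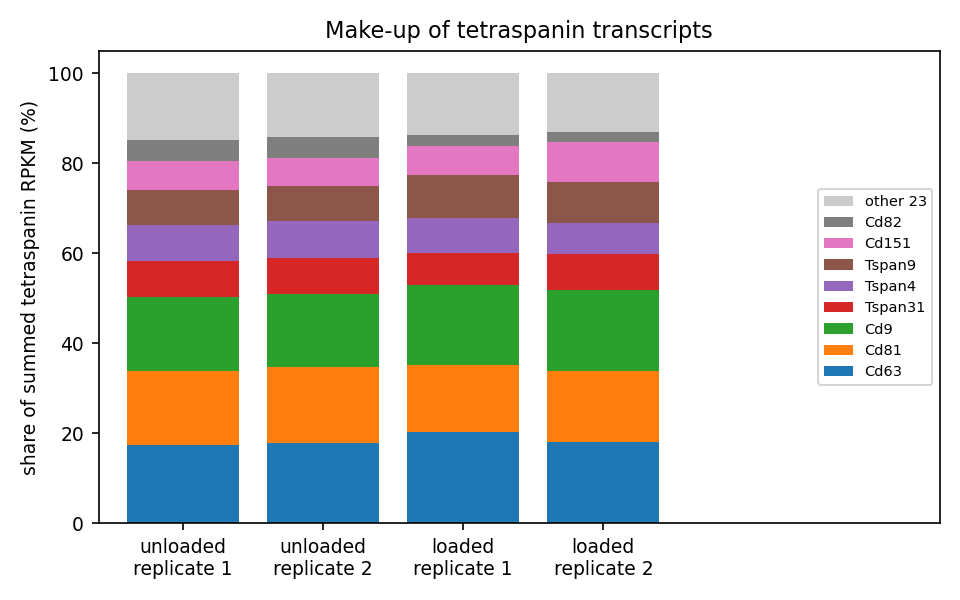
Share of the summed RPKM of 31 tetraspanin genes held by the 8 genes with the largest share in unloaded cells and by the others, in each library (bars start at 0). *Cd82* takes 4.63% of the unloaded and 2.36% of the loaded sum on average, and *Cd63*, *Cd81* and *Cd9* together take 50.6% and 52.3%. The shares hold for exon length only.

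Of the 26 other tetraspanins, 15 passed the filter on low counts and 11 had at most 10 counts in any library. None of the 15 was called with edgeR, and 1 had an unadjusted p under 0.05, against 14.3% of all tested genes. This was *Tspan9*, at 227.3 and 234.5 CPM in unloaded and 287.4 and 294.4 CPM in loaded cells. The groups did not overlap, and the log2 fold change was 0.33 (standard error 0.0600, edgeR adjusted p = 0.0874, DESeq2 adjusted p = 0.00249). *Tspan11* and *Tspan15* had estimates of 0.24 each, with edgeR adjusted p of 0.376 and 0.399, and *Tspan6* had -0.20 (edgeR adjusted p = 0.619). The median over the 15 genes was -0.0032.

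Of the 14 proteins known to associate with tetraspanins, 13 passed the filter and 4 had an unadjusted p under 0.05, all lower in loaded cells, against 7.46% of all tested genes in that direction. None passed an edgeR adjusted p of 0.01. *Cd47*, the "do not eat me" signal, had 306.2 and 303.1 CPM in unloaded and 239.8 and 243.6 CPM in loaded libraries, and its log2 fold change was -0.33 (edgeR adjusted p = 0.0792, DESeq2 adjusted p = 0.00353). *Itga3*, the laminin-binding integrin chain that pairs with CD151, had an estimate of -0.31 on the log2 scale (edgeR adjusted p = 0.0985). *Ifitm3*, an interferon-induced antiviral gene, had -0.34 (edgeR adjusted p = 0.122) and *Itgb4* -0.28 (edgeR adjusted p = 0.190). The median over the list was -0.082.

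In the list of the syndecan, syntenin and ALIX route, *Gpc1* had an edgeR adjusted p under 0.05. It was the only 1 of the 146 tested genes of the 8 lists to do so, against 0.904% of all tested genes. It encodes the heparan sulfate proteoglycan glypican-1, and its level was 186.5 and 186.2 CPM in unloaded and 246.2 and 261.3 CPM in loaded libraries. The log2 fold change was 0.45 (standard error 0.0646, edgeR adjusted p = 0.0486, DESeq2 adjusted p = 2.64e-05). *Hpse* encodes heparanase, which trims heparan sulfate chains, and stood at 45.1 ± 2.22 CPM without and 28.3 ± 2.18 CPM with loading (SD, n = 2), for which the log2 fold change was -0.67 (edgeR adjusted p = 0.0619, DESeq2 adjusted p = 0.00108). *Arf6*, the GTPase that acts with syntenin in endosomal budding, had 0.34 (edgeR adjusted p = 0.143). *Ext1*, a polymerase of heparan sulfate, had -0.25 (edgeR adjusted p = 0.152) and *Sdc3* -0.20 (edgeR adjusted p = 0.415). Of the 12 genes of this list, 2 were higher and 2 lower at an unadjusted p under 0.05, against 6.88% and 7.46% of all tested genes, and the median was -0.058.

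Of 30 tested genes of the ESCRT machinery none was called with edgeR. A positive log2 fold change was found for 20 of them, against 48.5% of all tested genes, with a median of 0.025 and a middle range from -0.042 to 0.15. Both loaded libraries lay above both unloaded ones for 8 ESCRT genes and below them for 2, against 22.1% and 24.5% of all tested genes. *Vps37b*, an ESCRT-I subunit like TSG101, was the one gene with an unadjusted p under 0.05 (higher in loaded cells, against 6.88% of all tested genes), at 49.7 ± 0.457 CPM in unloaded and 70.4 ± 7.58 CPM in loaded cells (log2 fold change 0.50, edgeR adjusted p = 0.129, DESeq2 adjusted p = 0.00594). *Chmp2b*, *Chmp4c* and *Vps4b* had estimates of 0.21, 0.95 and 0.15, with edgeR adjusted p of 0.420, 0.434 and 0.541, and *Chmp4c* rested on means of 0.694 and 1.35 CPM. *Hgs*, the ESCRT-0 subunit that gathers ubiquitinated cargo, was listed under 2 identifiers that share 2897 exon bases. One had 15.1, 78.4, 96.5 and 67.4 CPM and the other 104.5, 34.3, 29.8 and 46.2 CPM, in the order unloaded replicates 1 and 2, loaded replicates 1 and 2. Their log2 fold changes pointed in opposite directions, at 0.81 and -0.87 from the group means, whereas their sum was 119.6, 112.7, 126.3 and 113.5 CPM. Neither identifier gives a value for *Hgs* on its own.

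Among the Rab and SNARE genes of vesicle release, 23 of 29 in the table were tested, with a median of 0.027. *Rab7*, which takes late endosomes to lysosomes, had 207.7 ± 4.84 CPM in unloaded and 307.9 ± 65.2 CPM in loaded cells (log2 fold change 0.57, edgeR adjusted p = 0.152, DESeq2 adjusted p = 0.000175). *Tbc1d10a*, a GTPase-activating protein for RAB27 and RAB35, had -0.39 (edgeR adjusted p = 0.213), and the syntaxin gene *Stx5a* had -0.31 (edgeR adjusted p = 0.252). *Sytl1*, an effector of RAB27, had 5.59 ± 0.955 and 3.47 ± 0.0805 CPM, and its estimate was -0.69 (edgeR adjusted p = 0.273). The RAB27 effector genes *Sytl2* and *Unc13d*, named after their values were seen, were also tested. Their means were 8.22 and 0.501 CPM in unloaded and 5.89 and 0.651 CPM in loaded cells. Their log2 fold changes were -0.48 and 0.37 (edgeR adjusted p = 0.387 and 0.866). A further 5 effector genes of RAB27 (*Sytl3*, *Sytl4*, *Sytl5*, *Exph5* and *Mlph*, named after their values were seen) had at most 9 counts in any library and were not tested. At an unadjusted p under 0.05, 2 of the 23 genes were higher and 3 lower, against 6.88% and 7.46% of all tested genes.

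Ceramide and plasma membrane budding genes had a median of -0.046 over 17 tested genes, of which 1, the ceramide synthase gene *Cers6*, had an unadjusted p under 0.05, against 14.3% of all tested genes (log2 fold change 0.30, edgeR adjusted p = 0.245). *Smpd4*, *Ndfip1* and *Rhoa* had -0.26, -0.28 and 0.12, with edgeR adjusted p of 0.367, 0.435 and 0.550. The 22 vesicle cargo markers had a median of -0.012, and the 3 with an unadjusted p under 0.05 were lower in loaded cells, against 7.46% of all tested genes in that direction. These were the annexin gene *Anxa6* (-0.36, edgeR adjusted p = 0.164), *Lgals3bp* (-0.24, edgeR adjusted p = 0.193) and *Flot1*, a scaffold of membrane rafts (-0.50, edgeR adjusted p = 0.230). *Actn4* had 0.13 (edgeR adjusted p = 0.361).

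Since CD63 is also a lysosomal membrane protein, 14 genes of that membrane were set beside it. Their median was 0.010, with 8 estimates above and 6 below 0, and 1 was higher and 1 lower at an unadjusted p under 0.05, against 6.88% and 7.46% of all tested genes. Both loaded libraries lay above both unloaded ones for 6 of the 14 genes and below them for 5. These shares were 42.9% and 35.7%, against 22.1% and 24.5% of all tested genes. *Lamp1* had 718 ± 9.76 CPM in unloaded and 798 ± 26.1 CPM in loaded cells, where the log2 fold change was 0.15 (edgeR adjusted p = 0.291). *Cd68* was low, at 5.12 ± 0.654 and 2.94 ± 0.177 CPM (log2 fold change -0.80, edgeR adjusted p = 0.216). *Npc1* and *Clcn7* had 0.18 and 0.20, with edgeR adjusted p of 0.436 and 0.451. Among 139 list genes and members of at least 10 CPM, *Npc1*, *Sdc1* and *Tspan15* had the centred log2 values nearest to those of *Cd63* over the 4 libraries, with root mean square differences of 0.0229, 0.0277 and 0.0400 on the log2 scale. The nearest member was *Rab27b*, at 0.0607, and not *Cd9*. These genes were picked for their nearness among the 139, so this is a description only.

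Over the 146 tested genes of the 8 lists, 72 estimates were above and 74 below 0, with a median of -0.0035. With edgeR none was called at 0.01, 8 were higher and 13 lower at an unadjusted p under 0.05, against 6.88% and 7.46% of all tested genes. With DESeq2 4 were higher (*Gpc1*, *Rab7*, *Tspan9* and *Vps37b*) and 2 lower (*Hpse* and *Cd47*) at an adjusted p under 0.01. Of all genes that DESeq2 gave an adjusted p, 1.36% were higher and 1.55% lower. Both loaded libraries lay above both unloaded ones for 32 genes and below them for 35. These shares, 21.9% and 24.0%, were near the 22.1% and 24.5% of all tested genes.

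**Figure D5:**
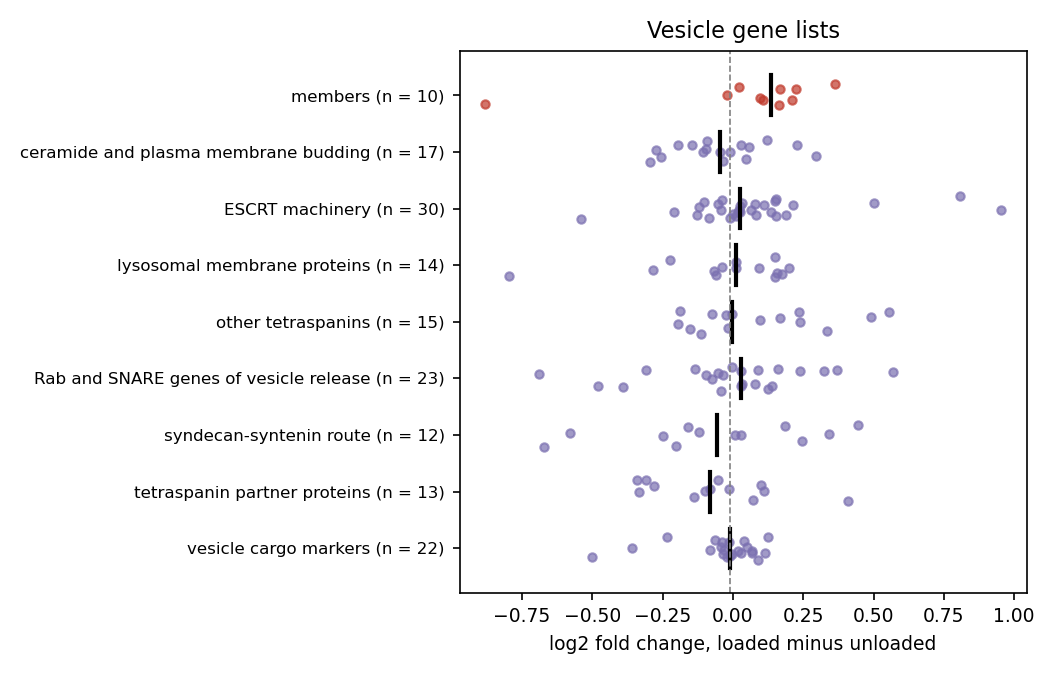
Log2 fold change (loaded minus unloaded) of each tested gene in the members and the 8 vesicle gene lists, with a black bar at the median of each list and a dashed line at the median of all tested genes, -0.0089. The list medians lie between -0.082 and 0.027, and that of the members, which include *Cd63*, at 0.14.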

How the data were processed

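The authors mapped trimmed reads to mm10 with HISAT2 2.1.0, assembled transcripts with StringTie 1.3.5 and made gene counts with prepDE. Values were deposited as whole-number read counts for each gene, not normalized. The annotation release and strandedness are not given in the sources used here. All 55450 identifiers matched GENCODE M21 (GRCm38), which supplied coordinates and exon lengths. Columns were assigned by name (Ctr and Tre with a replicate number).

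Genes were filtered with filterByExpr (count minimum 10), scaled by TMM and tested with glmQLFit and glmQLFTest of edgeR 4.0.16 in R 4.3.3, with Benjamini-Hochberg adjustment and the study's threshold of 0.01. The standard error is the log2 fold change divided by the square root of F, and CPM values use TMM factors. DESeq2 1.42.0, limma-voom (limma 3.58.1), RLE and upper-quartile factors, other filters, the replicate block, other pseudocounts, coding length and fits without each library were alternatives, and the procedure was tested on simulated data. The members and the 8 gene lists were chosen with earlier results of these data known. In each list the genes under an adjusted p of 0.05 and up to 4 more by smallest p are named, with the 3 genes nearest to *Cd63*. *Vamp7* was not analysed here. Promoter windows are from RefSeq (GRCm38.p6).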

Additional observations from a re-analysis of the deposited data

How the results depend on the processing

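No member was called higher under any alternative, and the number called lower, 0 in the main test, was 1 (*Cd82*) with DESeq2, with DESeq2 and the replicate block, and at an adjusted p under 0.05. Over the 8 lists the number called higher was 0 in the main test, 4 with DESeq2, 1 with DESeq2 and the replicate block, 1 at an adjusted p under 0.05, and between 0 and 1 over the fits that leave out 1 library. The gene with DESeq2 and the block was *Rab7*, and that without unloaded replicate 2 was *Hgs* under the identifier ENSMUSG00000025793.16 (log2 fold change 2.44), whose reads are divided with a second identifier. The number called lower was 2 with DESeq2 and 0 otherwise. Over all genes the calls were 2 higher and 14 lower in the main test, 170 and 193 with DESeq2, 63 and 95 with DESeq2 and the block, 4 and 25 with at least 10 counts required in every library, 0 and 0 without a filter, and from 0 and 0 (without either loaded library) to 18 and 40 (without unloaded replicate 2) on leaving out 1 library. The median log2 fold change of the members was between 0.033 (without loaded replicate 2) and 0.19 over the same fits. Library numbers are shared between the groups, but nothing in the labels says that they pair samples, and deviations from the group means correlated at -0.073 across genes between same-numbered libraries. Under the replicate block edgeR called no gene at 0.01, 62 genes passed 0.05 in place of 147, and *Cd82* had an adjusted p = 0.0573, *Cd63* 0.444 and *Cd9* 0.416.

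Directions turned in low or near-level members with 1 library left out. The log2 fold change of *Cd81* ran from -0.11 to 0.071 (0.013 without unloaded replicate 2), that of *Sdcbp* from -0.014 to 0.056 and that of *Rab27a* from -0.41 to 0.83 (-0.28 without unloaded replicate 1). The change of *Cd63* minus that of another member, with each library left out, ran from -0.10 to 0.082 for *Cd9*, from -0.44 to 0.19 for *Cd151*, from -0.020 to 0.23 for *Tsg101*, from -0.29 to 0.46 for *Rab27a* and from -0.028 to 0.13 for *Rab27b*. It kept its sign but not its size for *Cd81* (0.099 to 0.37), *Sdcbp* (0.11 to 0.27) and *Pdcd6ip* (0.027 to 0.21), and ran from 1.06 to 1.11 for *Cd82*. The causes were not tested. *Rab27a* had at most 44 counts in a library.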
